A study of Mus musculus with 12 samples.

Results

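The NF-kB transcription factor genes Nfkb1, Nfkb2, Rel, Rela and Relb and the inhibitor genes Nfkbia, Nfkbiz and Tnfaip3 were followed across open chromatin maps of mouse HoxB8 cells. These 8 genes, of 21883 protein-coding genes in the reference, were taken by name for their place in the pathway, with earlier results of these data known. For each gene, the peaks that overlapped its span or the 50 kb on either side were collected, which gave 66 of the 56682 open regions of the series. A region is a stretch formed by joining peaks of different libraries that overlap by at least 1 bp. HoxB8 cells are bone marrow cells immortalised with the Hoxb8 factor and kept in stem cell factor and estrogen, and every library was made 48 h after estrogen was taken away. The open DNA was mapped by ATAC-seq, which cuts accessible chromatin with a transposase that leaves sequencing adapters behind. The 4 groups held 3 libraries each and combined a guide with a pMICH vector. sgNT/Empty had a non-targeting guide and an empty vector, and sgB2/Empty had a guide against Asxl1 and an empty vector. sgNT/T618I and sgB2/T618I had the same guides with a vector for CSF3R T618I, a mutant receptor for granulocyte colony-stimulating factor. Nothing in the labels tells if libraries sharing a group are separate cultures, or if the edited cells are 1 clone, so p-values measure only the spread between these libraries.

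NF-kB factors are dimers of proteins that share a Rel homology domain. They are held in the cytoplasm by IkB proteins until kinases of the IKK complex mark those inhibitors for destruction, and they then enter the nucleus and bind kappaB sites. Several of the genes they switch on encode their own inhibitors, which ends the response. In myeloid cells the pathway is known for driving cytokine and chemokine genes, and the Rel proteins also take part in the maturation and survival of these cells.

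The peak lists held 18484 to 29699 peaks in the Empty libraries and 23695 to 32975 in the T618I libraries, and covered 9.23 to 17.9 Mb. The 2 shortest lists were sgNT/Empty replicate 1 and sgB2/Empty replicate 1. No read counts were in the lists, so the depth was unknown. All 12 markers of immature myeloid cells had open chromatin, with a summed scaled coverage of 51.6 to 63.6 kb (sgNT/Empty), 53.5 to 54.8 kb (sgB2/Empty), 52.5 to 53.6 kb (sgNT/T618I) and 46.3 to 48.2 kb (sgB2/T618I). Of 24 markers of 6 other cell types, 17 also reached a mean of 500 bp, and none was at 0 in every library. The 8 windows held 35 peaks in the shortest list, sgNT/Empty replicate 1, and 39 to 53 in the others.

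The sequence before the gene start is shown for the members whose RefSeq promoter holds a kappaB-like match, because these genes are known to answer to NF-kB itself. RefSeq (GRCm38.p6, the coordinates of mm10) gave 8 starts for 5 of the members, Nfkb2, Rel, Rela, Nfkbia and Tnfaip3. The 250 bases before each start were searched on both strands for the kappaB consensus and for the strings GGAAATTCC, GGAAATCCC and GGACTTTCC, which can overlap the consensus and each other. The sequences run 5′ to 3′ on the gene's strand and end at the base before the start, and capitals mark the matches. Of the 3 Nfkb2 starts and the 2 Tnfaip3 starts, 1 each is shown, the one whose matches lie nearest to it. The Nfkb2 window is chr19:46304487-46304736 on the plus strand, the Rel window chr11:23770970-23771219 on the minus strand, the Nfkbia window chr12:55492648-55492897 on the minus strand and the Tnfaip3 window chr10:19015411-19015660 on the minus strand.
Nfkb2: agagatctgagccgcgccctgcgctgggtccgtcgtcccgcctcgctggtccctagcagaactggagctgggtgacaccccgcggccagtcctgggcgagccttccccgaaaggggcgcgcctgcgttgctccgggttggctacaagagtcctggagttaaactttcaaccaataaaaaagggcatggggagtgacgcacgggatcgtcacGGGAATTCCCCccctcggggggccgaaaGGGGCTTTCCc
Rel: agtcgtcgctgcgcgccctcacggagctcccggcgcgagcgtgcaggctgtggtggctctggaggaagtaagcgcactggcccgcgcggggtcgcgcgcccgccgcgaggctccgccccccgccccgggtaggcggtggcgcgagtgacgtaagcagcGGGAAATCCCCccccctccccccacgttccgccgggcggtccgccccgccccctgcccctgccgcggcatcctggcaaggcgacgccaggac
Nfkbia: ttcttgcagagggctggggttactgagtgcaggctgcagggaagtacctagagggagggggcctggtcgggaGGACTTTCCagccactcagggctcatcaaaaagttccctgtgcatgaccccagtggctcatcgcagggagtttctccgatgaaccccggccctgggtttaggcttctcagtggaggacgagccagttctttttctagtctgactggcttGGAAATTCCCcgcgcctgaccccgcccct
Tnfaip3: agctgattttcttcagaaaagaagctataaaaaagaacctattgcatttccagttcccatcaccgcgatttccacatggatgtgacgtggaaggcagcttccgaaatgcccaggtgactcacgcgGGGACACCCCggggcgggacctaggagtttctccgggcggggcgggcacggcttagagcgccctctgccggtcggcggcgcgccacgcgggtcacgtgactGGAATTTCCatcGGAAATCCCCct

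Matches lay close to the start in the windows shown for Nfkb2, Nfkbia and Tnfaip3. In that of Nfkb2 the runs GGGAATTCCCC and GGGGCTTTCC began 39 and 11 bases before the start. The other 2 Nfkb2 windows held 1 run each, GGAATGTCCC and GGGACTTTCC, 236 and 225 bases before their starts. In Nfkbia, GGAAATTCCC began 29 bases before the start, and a second run, GGACTTTCC, began 178 bases before it. In Tnfaip3, GGAATTTCC and GGAAATCCCC lay 24 and 12 bases before the start and GGGACACCCC 125 bases before it, and the 1 run in Rel, GGGAAATCCCC, lay 92 bases before it. At least 1 of the 4 searches matched in 6 of the 8 member windows and in 4.28% of 32851 promoter windows of the same length. The consensus matched in 6 of 8, beside 3.90% of all, and GGAAATTCC, GGAAATCCC and GGACTTTCC in 2 each, beside 0.286%, 0.283% and 0.283%. These strings were picked after the member sequences had been read, so the shares are a description and no comparison of the members with other promoters. The Rela window and the second Tnfaip3 window had no match, which says only that these letters were not in them. The member windows had a median GC content of 64.6% against 52.4% for all windows, and a match is a description of letters and not of a bound site. Of the 8 starts, 6 lay inside a region with a peak in all 12 libraries, against 28.7% of all starts.

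Open chromatin around the 5 factor genes was broad at Nfkb2, Rela and Relb and sparse at Rel and Nfkb1. Scaled coverage is the peak-covered length in a window after every library was set to the same total covered length. The libraries are of bulk cells, so a change in the share of cells with an open site and a change per cell cannot be told apart. Per kb of window the mean over 12 libraries was 53.6 bp at Rela, 53.5 bp at Nfkb2 and 42.9 bp at Relb, against 11.1 bp at Nfkb1 and 8.83 bp at Rel. The 3 broadly covered windows are shared with 5, 5 and 8 other genes at Rela, Nfkb2 and Relb, whereas the windows of Nfkb1 and Rel hold 1 other gene each.

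Nfkb1 (chr3:135584655-135691969) encodes the precursor of a DNA-binding subunit that lacks its own activation domain. Its scaled coverage was 1.56, 2.40 and 2.94 kb in the sgNT/Empty libraries, 2.45, 1.28 and 2.33 in those of sgB2/Empty, 4.39, 1.74 and 2.27 in those of sgNT/T618I and 1.42, 3.20 and 1.72 in those of sgB2/T618I. The groups overlapped, and the highest value was a single sgNT/T618I library. Nfkb2 (chr19:46300994-46312400), the precursor gene of the non-canonical branch, had 8.07, 5.53 and 5.29 kb in the sgNT/Empty libraries, 6.64, 6.19 and 5.76 in those of sgB2/Empty, 6.34, 5.70 and 5.00 in those of sgNT/T618I and 5.80, 4.86 and 6.36 in those of sgB2/T618I. The 1 value above 7 kb came from the shortest list. Rela (chr19:5637442-5648134), the main activating subunit, had 7.88, 5.50 and 5.23 kb in the sgNT/Empty libraries, 6.41, 6.44 and 6.42 in those of sgB2/Empty, 5.43, 5.68 and 5.87 in those of sgNT/T618I and 5.59, 4.56 and 6.18 in those of sgB2/T618I. As at Nfkb2, sgNT/Empty replicate 1 was the highest of all 12.

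Relb (chr7:19606217-19629438), which pairs with the Nfkb2 product, had 5.16, 4.86 and 5.40 kb in the sgNT/Empty libraries, 6.84, 5.82 and 5.13 in those of sgB2/Empty, 5.05, 4.62 and 5.69 in those of sgNT/T618I and 4.66, 4.62 and 5.52 in those of sgB2/T618I. The groups overlapped, with the 2 highest values in sgB2/Empty. Rel (chr11:23736847-23770969), the factor best known from blood cells, had 1.04, 1.09 and 0.82 kb in the sgNT/Empty libraries, 1.26, 0.99 and 0.88 in those of sgB2/Empty, 1.44, 1.14 and 1.09 in those of sgNT/T618I and 1.14, 1.36 and 1.96 in those of sgB2/T618I. Its T618I libraries were all at or above 1.09 kb, but sgB2/Empty replicate 1 and sgNT/Empty replicate 2 lay inside their range.

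The inhibitor genes differed in coverage as well, with 43.6 bp per kb of window at Nfkbia, 19.2 at Tnfaip3 and 16.8 at Nfkbiz. Nfkbia (chr12:55489409-55492647) encodes the classical inhibitor that holds Rela dimers in the cytoplasm. Its scaled coverage was 5.11, 4.65 and 4.16 kb in the sgNT/Empty libraries, 3.82, 5.05 and 4.88 in those of sgB2/Empty, 4.25, 4.26 and 4.38 in those of sgNT/T618I and 4.86, 3.76 and 4.84 in those of sgB2/T618I. No other protein-coding gene reaches into the Nfkbia or the Tnfaip3 window, and the Nfkbia values of all groups overlapped. Tnfaip3 (chr10:19000910-19015410) encodes a ubiquitin-editing enzyme that shuts down signalling to IKK. It had 1.97, 2.34 and 2.15 kb in the sgNT/Empty libraries, 3.15, 2.16 and 2.33 in those of sgB2/Empty, 2.10, 1.86 and 2.03 in those of sgNT/T618I and 2.47, 1.96 and 1.83 in those of sgB2/T618I. The highest value was again in one of the 2 shortest lists, sgB2/Empty replicate 1. Nfkbiz (chr16:55811375-55838954) encodes a nuclear IkB protein that acts with NF-kB on secondary response genes. Its scaled coverage was 1.84, 3.13 and 2.14 kb in the sgNT/Empty libraries, 1.94, 2.32 and 2.31 in those of sgB2/Empty, 2.31, 2.03 and 2.36 in those of sgNT/T618I and 2.19, 2.16 and 0.95 in those of sgB2/T618I. The lowest value, in sgB2/T618I replicate 3, stood well below the other 11.

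**Figure D1:**
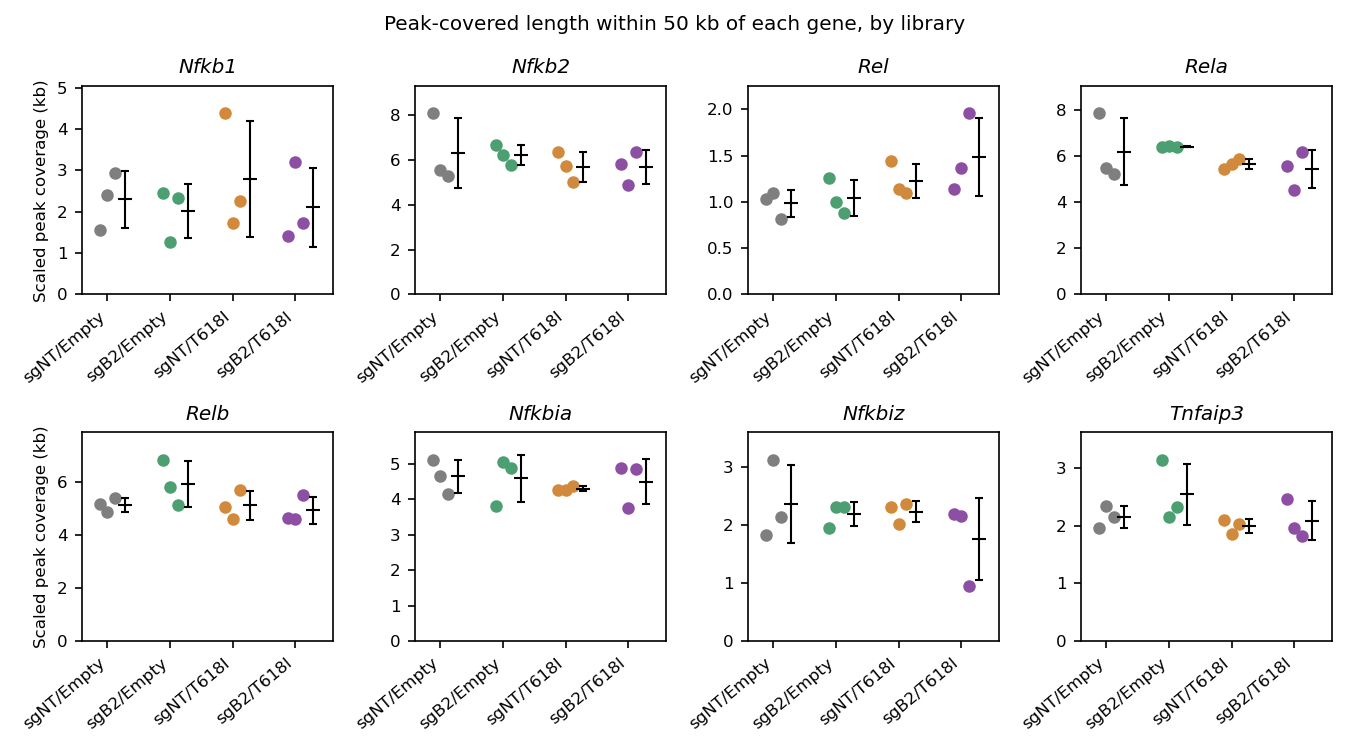
Scaled peak-covered length (kb, vertical axes from 0) in the window of each member, 1 point per library, with the mean and SD of each group of 3 beside the points. Empty and T618I libraries overlap at every gene; Rel runs from 0.82 kb to 1.96 kb with its highest point in sgB2/T618I, and Nfkb2 and Rela each have 1 high point from the shortest list.

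Coverage of the whole windows did not pass the test for any of the 8 genes with either mutation. Values of log2(scaled bp + 500) were fitted with limma over 15282 genes, with all 12 libraries sharing 1 estimate of the spread, and a gene is said to have risen or fallen at a Benjamini-Hochberg adjusted p below 0.05 over all genes tested. With T618I, taken as the mean over both guides, 0 of 8 members passed, where 6.47% of all genes did, 4.05% higher and 2.41% lower. The counts were also 0 of 8 for T618I in sgNT cells (1.49% of all genes, 1.16% higher) and for T618I in sgB2 cells (1.60% of all genes, 1.21% higher). With sgB2, 0 of 8 passed as the mean over both vectors (2.83% of all genes), in Empty cells (0.353%) and in T618I cells (0.360%). For the interaction, the difference between the T618I changes of the 2 guides, 0 of 8 passed against 0.00654% of all genes. An unadjusted p below 0.05 was reached by 1 member with T618I and by 0 in each of the other 6 comparisons. The share of all genes at that level was not counted.

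That 1 member was Rel. It had a mean of 1.36 kb in T618I and 1.01 kb in Empty libraries, a log2 difference of 0.28 ± 0.12 (SE; 95% interval 0.02 to 0.55; unadjusted p = 0.0358, adjusted p = 0.19). Without sgB2/T618I replicate 3, the highest library, the difference was 0.20 (adjusted p = 0.335). The other 7 had smaller T618I differences, from -0.17 ± 0.15 at Nfkbiz and -0.17 ± 0.10 at Rela to 0.11 ± 0.21 at Nfkb1. The 95% intervals ran from -0.37 to 0.04 at Rela, from -0.34 to 0.10 at Nfkb2, from -0.30 to 0.06 at Relb, from -0.25 to 0.13 at Nfkbia and from -0.38 to 0.06 at Tnfaip3, so that a log2 change of 1 in either direction lay outside them. At Nfkb1 the interval was wider, from -0.33 to 0.54. The median over the 8 members was -0.12 with T618I and 0.01 with sgB2, beside -0.05 and 0.00 over all genes. With sgB2 the members ran from -0.24 ± 0.21 at Nfkb1 and -0.20 ± 0.15 at Nfkbiz to 0.12 ± 0.12 at Rel and 0.12 ± 0.10 at Tnfaip3. Scaling to equal total coverage moved all genes together: without it the median of all genes was 0.20 with T618I and -0.14 with sgB2. The split of all calls with T618I moved from 619 higher and 369 lower to 837 and 16, and with sgB2 from 233 and 199 to 7 and 15. Rel then passed with T618I (0.50, adjusted p = 0.0434), set against that shifted median.

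**Figure D2:**
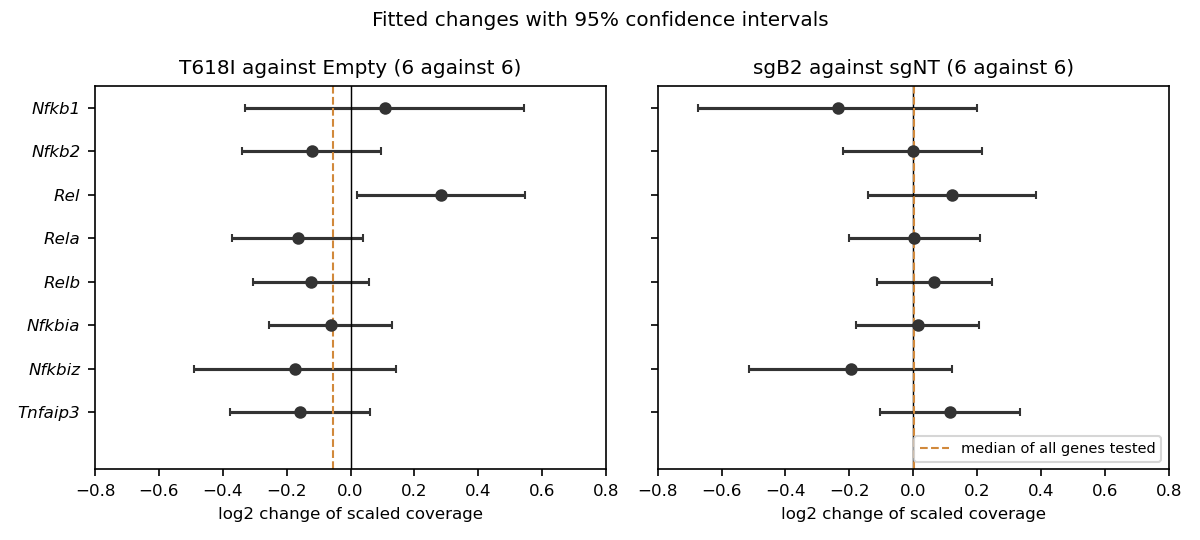
Fitted log2 change of scaled coverage (horizontal axis) with its 95% confidence interval for each member, for T618I against Empty on the left and sgB2 against sgNT on the right, each 6 libraries against 6; the dashed line is the median of all genes tested. All intervals except that of Rel with T618I include 0, and Nfkb1 and Nfkbiz have the widest.

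The single open regions of the windows were then described one by one. Of the 66 regions, 29 had a peak in all 12 libraries (43.9%, against 23.6% of all regions), 10 in 1 library only (15.2% against 34.5%) and 27 in 2 to 11 libraries. Of the 14 regions around Nfkb1, 1 was found in all 12 libraries, as was 1 of 8 around Nfkbiz and 1 of 2 around Rel. The counts were 7 of 11 around Rela, 6 of 9 around Relb, 5 of 8 around Nfkb2, 5 of 8 around Nfkbia and 3 of 6 around Tnfaip3. Of the 66, 24 overlap another gene, among them 7 of 9 around Relb and 6 of 8 around Nfkb2. The percentile rank of a peak is its place in its own list by the deposited −log10 q, with 100 the highest, and was not tested between lists.

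At 6 of the 8 genes, all but Nfkb2 and Nfkbiz, a region found in all 12 libraries lay within 1 kb of an end of the gene span, which held for 40.6% of all genes. Among the factors, the region at a Relb end (chr7:19628414-19629589) was the most uniform, with 1091 to 1174 bp and a median percentile rank of 90.5. The region over 2 of the 3 Nfkb2 starts (chr19:46304061-46305781) covered 1463 to 1699 bp at a median rank of 79.9, and contains the printed sequence window. The region at the Rela start (chr19:5636976-5637997) covered 744 to 1022 bp, and the only region at an Nfkb1 end (chr3:135690672-135691861) covered 752 to 1167 bp at a median rank of 56.5. None of these regions passed the test in any comparison.

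The Rel start lies in a region (chr11:23769787-23771680) that was the sole site in its window found in more than 2 libraries. It covered 683, 1127 and 985 bp in sgNT/Empty, 848, 863 and 827 bp in sgB2/Empty, 1237, 1290 and 1261 bp in sgNT/T618I, and 1093, 1292 and 1758 bp in sgB2/T618I. Before scaling, 5 of the 6 T618I libraries were longer than every Empty library, and sgB2/T618I replicate 1 lay below 1 of them. After scaling the log2 difference was 0.23 (adjusted p = 0.374), which did not pass, whereas the fit without scaling called it. Its median rank was 85.4, the highest in the Rel window.

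Among the inhibitors, the Nfkbia start lies in a region (chr12:55491750-55492854) of 842 to 1057 bp, and a second region (chr12:55488615-55489278), 0.131 kb past the other gene end, had 514 to 654 bp and the highest median rank of that window, 83.8. The Tnfaip3 start region (chr10:19014899-19015789) had 520 to 849 bp at a median rank of 89.9. Nfkbiz differed from these. The region at its upper end (chr16:55838642-55839441) was found in 8 of 12 libraries and was absent from sgNT/Empty replicate 1, sgB2/Empty replicate 1 and sgB2/T618I replicates 1 and 3. Inside the gene, by contrast, a region (chr16:55821612-55822636) was found in all 12, with the highest median rank of any region in the 8 windows. That peak stood between place 513 and place 3559 of its list, or between 82.5 and 98.4 by percentile. The strongest regions of the other windows lay over neighbouring genes: at Pcnx3 and Map3k11 for Rela (chr19:5688323-5690051, median rank 84.8), at Psd and Fbxl15 for Nfkb2 (chr19:46328094-46328996, 83.0) and in Manba for Nfkb1 (chr3:135565367-135565618, 71.5).

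**Figure D3:**
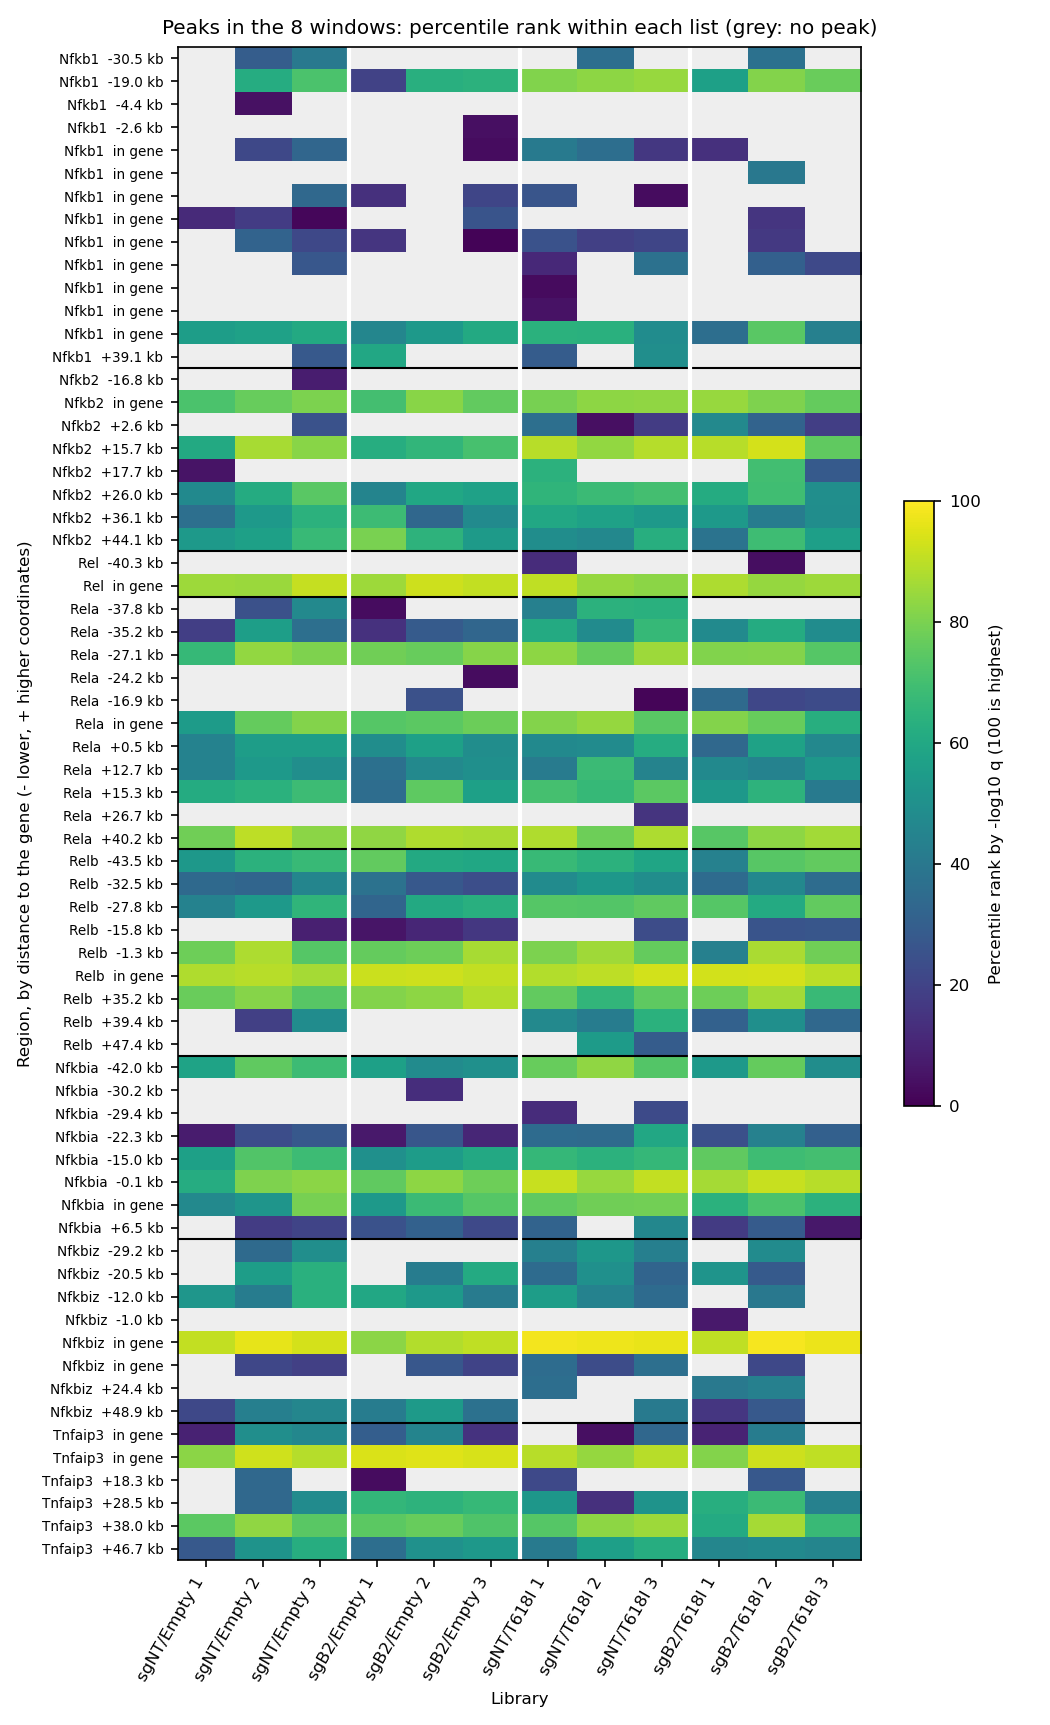
Percentile rank by −log10 q (colour, 100 highest) of each of the 66 regions (rows, ordered along each window and labelled by distance to the gene) in each of the 12 libraries (columns, white lines between groups); grey marks a region with no peak. Regions at gene ends of Relb, Rel and Tnfaip3 and inside Nfkbiz are bright in every column, and most of the Nfkb1 gene body is grey.

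The fit of single regions found 2 that rose with T618I. Of the 66 regions, the 56 found in at least 2 libraries were tested among 37113, as log2(scaled bp + 100), and the other 10 were not. With T618I as the mean over both guides, 2 of 56 passed, both higher, where 5.64% of all regions passed and 4.35% were higher. The share among the members was near this background. Which regions passed depended on the lists. In lists of equal length 4 of 48 passed, beside 2494 of 24824 over all regions. Of these 4, 3 were lower with T618I and 1 was higher, the one near Relb. In each of the other comparisons 0 of 56 passed: T618I in sgNT cells (1.81% of all regions), T618I in sgB2 cells (2.92%), sgB2 as the mean over both vectors (1.06%), sgB2 in Empty cells (0.854%), sgB2 in T618I cells (1.42%) and the interaction (0.0485%). In the order just given, 5, 5, 8, 4, 6 and 1 of the 56 had an unadjusted p below 0.05 in limma. With T618I as the mean over both guides the count was 9. The share of all regions at that level was not counted, so these counts have no background beside them.

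The first lies 2.63 kb past the upper end of Nfkb2, inside Psd (chr19:46315029-46315519). Its peak covered 0, 0 and 414 bp in sgNT/Empty, 0, 0 and 0 bp in sgB2/Empty, 399, 434 and 410 bp in sgNT/T618I, and 422, 437 and 252 bp in sgB2/T618I. It was thus present in 6 of 6 T618I libraries and 1 of 6 Empty libraries, with a log2 difference of 1.82 ± 0.39 (adjusted p = 0.0248). The region met the minimum of 2 libraries for the fit only through its T618I peaks, which limits this p-value. The peaks were low in their lists, at percentile ranks from 4.2 to 47.2. The call was lost in lists of equal length (0.76, adjusted p = 0.352), with peaks of −log10 q of at least 5 only (0.78, adjusted p = 0.422) and without sgNT/Empty replicate 2 (1.64, adjusted p = 0.0507). It held without the 2 shortest lists (1.64, adjusted p = 0.0445).

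The second lies 39.4 kb past the upper end of Relb, with Apoc2 and Gm44805 the nearest genes (chr7:19668848-19669681). It covered 0, 580 and 637 bp in sgNT/Empty, 0, 0 and 0 bp in sgB2/Empty, 803, 709 and 834 bp in sgNT/T618I, and 220, 790 and 663 bp in sgB2/T618I. All 6 T618I libraries and 2 of 6 Empty libraries had the peak, and the log2 difference was 1.85 ± 0.44 (adjusted p = 0.0348). It passed without the 2 shortest lists (1.40, adjusted p = 0.0147) but not with the stricter peaks (1.50, adjusted p = 0.253). Leaving out any 1 of the 3 sgB2/Empty libraries, the 3 sgNT/T618I libraries or sgB2/T618I replicates 2 and 3 gave an adjusted p of 0.0595 to 0.0706 for T618I.

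A rule of presence and absence also picked these 2 regions within sgB2 cells. The rule reads the same peaks as the fit and is no separate support. Within sgB2 cells the fit gave them adjusted p-values of 0.0632 near Nfkb2 and 0.0518 near Relb. A region counted as gained where it had a peak in each of the 3 libraries with the mutation and in 0 of the 3 compared with them, and as lost in the reverse case. With T618I in sgB2 cells 2 of 56 were gained, those near Nfkb2 and Relb, and 0 lost (0.911% of all regions). This is near the 3.24% gained among all 37113 regions found in at least 2 libraries. With T618I in sgNT cells 0 were gained (3.24%) and 1 was lost (0.550%), a region inside Nfkb1 (chr3:135602666-135603010). It covered 273, 314 and 190 bp in sgNT/Empty, 0, 0 and 269 bp in sgB2/Empty, 0 bp in all 3 sgNT/T618I libraries, and 0, 279 and 0 bp in sgB2/T618I. One sgB2/T618I library thus had the peak again, and its ranks were low, from 1.9 to 26.0. With sgB2 in Empty cells 0 were gained (0.701%) and 0 lost (0.940%), and with sgB2 in T618I cells 0 were gained (0.878%) and 1 was lost (1.84%). The lost region lies 37.8 kb below Rela (chr19:5599179-5599688) and covered 379, 215 and 239 bp in sgNT/T618I and 0 bp in all sgB2/T618I libraries, with 0, 177 and 196 bp in sgNT/Empty and 295, 0 and 0 bp in sgB2/Empty. These are counts by rule, since 3 against 3 libraries cannot go below an exact p of 0.1.

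A region just past the upper end of Rela was shorter in most sgB2 libraries, but the difference did not pass the test. It lies 0.504 kb beyond the gene (chr19:5648638-5649761), and a peak was found there in all 12 libraries. Its length was 1026, 1083 and 1098 bp in sgNT/Empty and 1064, 1054 and 1076 bp in sgNT/T618I, against 383, 496 and 1102 bp in sgB2/Empty and 419, 416 and 405 bp in sgB2/T618I. All 6 sgNT libraries had the long form and 5 of 6 sgB2 libraries a form under 500 bp, the exception being sgB2/Empty replicate 3. The log2 difference was -0.80 ± 0.18 (adjusted p = 0.057 in limma). It passed in lists of equal length (-0.83, adjusted p = 0.0165), among regions found in at least 4 libraries (-0.80, adjusted p = 0.0491), without scaling (-0.96, adjusted p = 0.0256) and without sgB2/Empty replicate 3 (-0.96, adjusted p = 0.00854). That last fit leaves out the 1 exception. The difference did not pass in 4 other settings or in 11 of the 12 fits without 1 library, with adjusted p-values up to 0.233. The ranks did not separate the guides in the same way, at 44.5 to 61.9 in sgNT and 33.7 to 57.7 in sgB2 libraries.

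**Figure D4:**
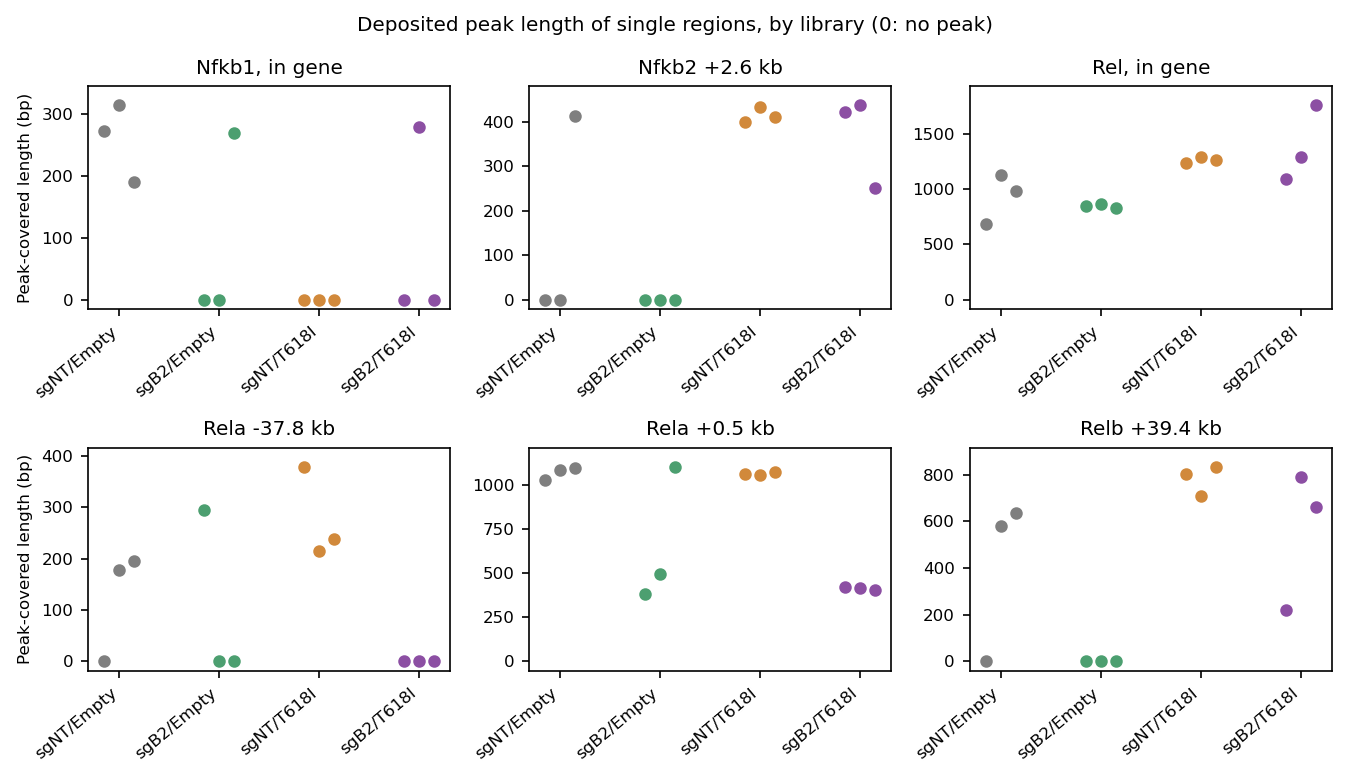
Deposited peak length (bp, vertical axes from 0, where 0 is no peak) of 6 regions by library, 3 points per group, not scaled. The regions near Nfkb2 and Relb have points above 0 in all 6 T618I libraries, the region past Rela splits into about 1000 bp in sgNT and mostly under 500 bp in sgB2 libraries, and 5 of 6 T618I libraries exceed every Empty library at Rel.

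The rest of the pathway was counted in the same gene fit, from 3 lists. Of 28 genes upstream of the factors (IKK subunits, ubiquitin enzymes and adaptors), 0 rose and 0 fell with T618I in limma. Of all genes, 4.05% rose and 2.41% fell. The median log2 difference of the 28 was -0.07 beside -0.05 over all genes, and 5 were at an unadjusted p below 0.05. Of 20 other IkB proteins and negative regulators, 2 rose and 0 fell, beside the same 4.05% and 2.41%, with a median of -0.02. Among these 20, 7 were at an unadjusted p below 0.05. The share of all genes at that level was not counted. Otulin, an enzyme that removes linear ubiquitin chains, had 0.93 to 1.45 kb in the 6 Empty libraries and 1.70 to 2.69 kb in the 6 T618I libraries (0.62 ± 0.12, adjusted p = 0.0057). Nfkbil1, an IkB-like gene, rose by 0.36 ± 0.09 (adjusted p = 0.0268), but its window overlaps that of Tnf. The Otulin call was lost in lists of equal length (0.29, adjusted p = 0.187), with the stricter peaks (0.08, adjusted p = 0.741), with peaks given to the nearest gene only (0.44, adjusted p = 0.0597) and with windows of 10 kb (0.44, adjusted p = 0.066). That of Nfkbil1 was lost in 14 of 24 alternatives, 7 of them without 1 library.

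Of 34 known NF-kB target genes, 32 were tested, and 7 rose and 0 fell with T618I, where 4.05% of all genes rose. The median of the 32 was 0.13, and 14 were at an unadjusted p below 0.05, with the share of all genes not counted. The list was written with the T618I results for Il6, Ccl3 and Ccl4 known, so its count is not independent of them, and the Ccl3 and Ccl4 windows share peaks. Il6, an inflammatory cytokine, had 0, 0.25 and 0.18 kb in the sgNT/Empty libraries, 0.26, 0.25 and 0.22 in those of sgB2/Empty, 0.60, 1.12 and 0.71 in those of sgNT/T618I and 1.22, 1.42 and 1.49 in those of sgB2/T618I (log2 difference 1.18 ± 0.14, adjusted p = 0.000148). Every T618I library was above every Empty library. No Empty library reached 500 bp at Il6, the minimum mean for the gene fit. Il6 was thus tested only because of its T618I coverage, which limits its p-values and its place among the 7. Nos2, the inducible nitric oxide synthase, had 1.51 to 2.54 kb in Empty and 3.02 to 3.88 kb in T618I libraries (0.83 ± 0.11, adjusted p = 0.000229). Traf1, an adaptor of TNF receptors that NF-kB induces, had 0.33 to 1.37 kb in Empty and 1.25 to 2.39 kb in T618I libraries, which overlapped (0.97 ± 0.19, adjusted p = 0.00662). Ccl4, a chemokine, rose by 0.69 ± 0.12 (adjusted p = 0.00315). In sgNT cells alone 3 of the 32 rose with T618I, Nos2, Il6 and Traf1, where 1.16% of all genes rose. In sgB2 cells alone 3 rose, Il6, Ccl4 and Nos2, where 1.21% did. The calls of Nos2 and Traf1 were lost with the stricter peaks (0.38, adjusted p = 0.104, and 0.35, adjusted p = 0.578), that of Il6 with a window of 100 kb (0.42, adjusted p = 0.0598) and that of Ccl4 with windows of 10 kb (0.49, adjusted p = 0.0538) and where each peak counted for its nearest gene alone (0.09, adjusted p = 0.703). The other 3 of the 7, named after their values were seen, were Csf1, Ccl3 and Tnfaip2. The call of Tnfaip2 (0.56, adjusted p = 0.0273) was lost in 13 of 24 alternatives, 6 of them without 1 library, with adjusted p-values up to 0.415. That of Ccl3 (0.55, adjusted p = 0.0197) was lost in 6 of 24, 2 of them without 1 library, and that of Csf1 (0.44, adjusted p = 0.0109) in 2 of 24. With sgB2, in any of its 3 comparisons, and for the interaction, 0 genes of the 3 lists rose or fell in limma. For the mean sgB2 effect, 4, 4 and 5 of the upstream, inhibitor and target genes had an unadjusted p below 0.05, and for the interaction 1, 1 and 2. The share of all genes at that level was not counted here either.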

How the data were processed

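ATAC-seq peaks of 12 libraries were analysed, grouped per the labels. Per the submitters' processing notes, BWA 0.7.17, SAMtools 1.9, bedtools 2.30, deepTools 3.5 and MACS2 2.2.7.1 were used on build mm10. The authors deposited 1 MACS2 broad peak list per library, with a score, a fold (ratio of signal over background), a −log10 p and a −log10 q per peak. The score the authors deposited equalled 10 times the −log10 q in 99.96 to 99.99% of peaks and was not used, nor were the deposited fold and −log10 p. The deposited −log10 q served only to rank and filter peaks within a list. The lists give no reads, so depth and counting error are unknown.

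Peaks sharing 1 bp or more were joined into 56682 regions. Covered bp were scaled to equal totals and fitted with limma 3.58.1 (R 4.3.3, trend) to 4 groups with 8 residual degrees of freedom: log2(bp + 500) for genes averaging 500 bp or more within 50 kb of the span, log2(bp + 100) for regions found in 2 or more libraries. P-values were Benjamini-Hochberg adjusted over all features in each of 7 comparisons. Python 3.11.15, numpy 2.4.6, pandas 2.3.3 and matplotlib 3.10.9 did the rest.

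Both fits were tested on simulated data, read as T618I against Empty in sgNT cells. Independent normal noise with each feature's own spread was drawn around its mean on the log2 scale, and rises were planted in sgNT/T618I. Peaks that are all or none and lists of unequal length were not simulated, so the rates may differ in the real lists. Of 100 genes with a planted log2 change of 1, the gene fit called 88, with 6 others among 15282. The region fit found 18 of 100 regions at 1 and 44 of 100 at 2, among 37113, so many changes of single regions would be missed in such data.

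Members and lists were chosen with earlier results of these data known, and the motif strings after the sequences had been read. All 8 members are named. The regions named are the highest ranking in each window, those within 1 kb of a start or gene end, and those called, gained or lost. List genes named are those with the smallest p, up to 4 per list and direction. Strand and starts for Nfkb1, Relb and Nfkbiz, and the sequence of single regions, were not used here. Alternatives were window, filter, added constant, scaling, stricter or equal-length lists, peaks given to the nearest gene, number of peaks as a covariate, a block by replicate number, and 1 library left out. The fit without both shortest lists was added after seeing the data.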

Additional observations from a re-analysis of the deposited data

How the results depend on the processing

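The lists carry no depth, and a peak missing from a short list may be a site that was not called, so windows and single regions are limited by list length. Of the 8 genes, 0 passed under any alternative except Rel with T618I without scaling (1 of 8, beside 853 of 15295 over all genes). Small differences changed sign with the setting. With T618I and no scaling they were 0.18 at Nfkb2, 0.22 at Nfkbia, 0.084 at Nfkbiz, 0.13 at Rela, 0.17 at Relb and 0.10 at Tnfaip3, beside a median of 0.20 for all genes. With a covariate for the number of peaks Nfkb1 was -0.087 and Nfkb2 0.022, with stricter peaks Nfkb1 was -0.16 and Nfkbia 0.060, in equal-length lists Nfkbia was 0.22 and Relb 0.11, and with a 10 kb window Nfkbiz was 0.0097. With sgB2 and no scaling, Nfkbia was -0.14, Rel -0.0050, Rela -0.16, Relb -0.10 and Tnfaip3 -0.036. In equal-length lists Nfkbia was -0.064 and Rela -0.034, with a 100 kb window Nfkbia was -0.060, Rela -0.054 and Relb -0.065, and with a 10 kb window Nfkb2 was 0.034, Rela -0.28 and Tnfaip3 -0.064. With peaks given to the nearest gene only, Nfkb2 was 0.081 and Rela -0.28, with stricter peaks Rela was -0.078 and Relb -0.18, with the covariate Rela was -0.031, and without both shortest lists Nfkb2 was 0.064. With 1 library left out, Nfkb1 ran from -0.054 to 0.23 with T618I, and with sgB2 Nfkb2 ran from -0.054 to 0.088, Rela from -0.048 to 0.089 and Nfkbia from -0.020 to 0.071.

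For single regions with T618I, 4 of 48 passed in equal-length lists, beside 2494 of 24824 over all regions. With stricter peaks 1 of 42 passed, beside 1281 of 22305. In the main fit 2 of 56 passed, beside 2092 of 37113. Most of those in equal-length lists and with stricter peaks were other regions. Both regions of the main fit also passed with 50 bp added, with the replicate block and without both shortest lists. They passed as well without scaling, where 3 of 56 passed (2591 of 37113 over all regions). The same held with regions of at least 4 libraries, where 3 of 52 passed (1955 of 28294). In equal-length lists the region near Relb was higher and 3 were lower, 1 inside Tnfaip3 (-1.80) and 2 around Nfkbiz (-1.45 and -1.80). With stricter peaks 1 was lower, around Nfkbiz (-1.52). In sgB2 cells, against 0, 2 passed in equal-length lists (1345 of 24824 over all regions) and 1 with stricter peaks (522 of 22305). There, 1 also passed with regions found in at least 4 libraries (1061 of 28294) and 1 without both shortest lists (1444 of 36543). With the replicate block 1 passed (691 of 37113). In sgNT cells 1 passed in equal-length lists (1122 of 24824), against 0. With sgB2, 3 passed without both shortest lists (1780 of 36543 over all regions) and 2 in equal-length lists (1073 of 24824). With regions of at least 4 libraries 1 passed (415 of 28294), as did 1 without scaling (924 of 37113). Without both shortest lists 1 passed in Empty cells (1329 of 36543) and 1 in T618I cells (731 of 36543). In T618I cells equal-length lists gave 2 (539 of 24824). Leaving out 1 library gave 1 to 3 regions with T618I, 0 to 1 in sgNT and 0 to 2 in sgB2 cells, 0 to 2 with sgB2, 0 to 1 in Empty cells, 0 to 1 in T618I cells and 0 to 1 for the interaction. Over all regions, leaving out 1 library gave 1130 to 2649 with T618I and 270 to 1848 with sgB2. Requiring at least 2 of 3 libraries against none raised the regions gained or lost from 3 to 9 with T618I and from 1 to 8 with sgB2, which was 4 without both shortest lists. With 1 library left out these counts were 3 to 5 and 1 to 5. The share of all regions gained or lost under these changed settings was not counted. The cause of these differences was not tested. Il6 was not above the minimum in equal-length lists, with stricter peaks or with a 10 kb window, and has no value there, and neither has Traf1 with a 10 kb window or with peaks given to the nearest gene only. Over all genes, 988 passed with T618I (372 to 1501 over the alternatives) and 432 with sgB2 (22 to 818).

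Replicate numbers have no stated meaning. Over 18 pairs of libraries with the same number, deviations correlated at -0.16 to 0.22, and 6 of 12 libraries were closest to their own number. Without values for pairs of different number, this cannot settle if the numbers pair the samples. The main fit had no block. With the replicate block, 0 of 8 members passed in each of the 7 comparisons, 2 regions passed with T618I, and over all regions 1081 passed with T618I in place of 2092.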

Other observations

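The genes on other chromosomes whose log2 scaled coverage followed each member most closely over the 12 libraries were looked up among 13974 to 14797 genes per member. The closest were Olfr56 for Nfkb1 (Pearson r = 0.95), Serhl for Nfkb2 (0.94), Slc44a2 for Rel (0.87), Hnrnpm for Rela (0.97), Cep95 for Relb (0.92), Plcb2 for Nfkbia (0.91), Il2ra for Nfkbiz (0.87) and Ska1 for Tnfaip3 (0.89). The second were Olfr1395 (0.95), Rmdn3 (0.94), Ap1m2 (0.86), Pram1 (0.95), Ddx5 (0.91), Filip1 (0.90), Plcb1 (0.86) and Pum2 (0.88). All points share their library and its list length, these are the highest of many values, and they are a description only.

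Regions that passed as lower with T618I only under some alternatives were picked out after their values were seen. One lies 48.9 kb past Nfkbiz inside Nxpe3 (chr16:55887871-55888303). It covered 181, 273 and 279 bp in sgNT/Empty, 303, 343 and 433 bp in sgB2/Empty, 0, 0 and 212 bp in sgNT/T618I, and 200, 182 and 0 bp in sgB2/T618I. Its log2 difference with T618I was -1.39 (adjusted p = 0.0505 in limma), just outside the threshold. It passed in equal-length lists (-1.80, adjusted p = 0.00332), among regions found in at least 4 libraries (adjusted p = 0.0483), without sgB2/T618I replicate 1 (adjusted p = 0.0414) and without sgNT/T618I replicate 3 (adjusted p = 0.0313).

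A second region lies 12028 bp below Nfkbiz (chr16:55798915-55799347). It covered 225, 423 and 358 bp in sgNT/Empty, 198, 248 and 317 bp in sgB2/Empty, 293, 236 and 283 bp in sgNT/T618I, and 0, 189 and 0 bp in sgB2/T618I, so the low values were those of sgB2/T618I. Its log2 difference with T618I was -1.01 (adjusted p = 0.0581 in limma). It passed in equal-length lists (-1.45, adjusted p = 0.0149), with stricter peaks (-1.52, adjusted p = 0.0253) and without sgB2/T618I replicate 2 (-1.22, adjusted p = 0.0109). Another, inside Tnfaip3 (chr10:19009091-19009606), had a difference of -0.96 (adjusted p = 0.238) and passed in equal-length lists (-1.80, adjusted p = 0.00955).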
